A study of Mus musculus with 4 samples.

Results

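Genes of protein folding and quality control in the endoplasmic reticulum (ER) and of the unfolded protein response were followed in CAD cells treated with an inhibitor of ACSS2, the enzyme that makes acetyl-CoA from acetate. The 35 genes were given as a list of symbols grouped by function, and all 35 had a row among the 24341 genes of the deposited table. They were divided by role into 12 chaperones and co-chaperones, 9 disulfide enzymes, 10 degradation factors and 4 stress sensors and XBP1. CAD cells are a mouse catecholaminergic neuronal line, and every culture was held without serum for 5 days to differentiate. The treated cultures received a quinoxaline urea that inhibits ACSS2, called ACSS2i below, for 24 h at 20 µM. The control cultures received the solvent DMSO for 24 h. Each group had 2 libraries of polyadenylated RNA, with no label saying whether they were separate cultures. Each p-value is therefore relative to the spread of these libraries, which may be technical. Where values are given as a pair, replicate 1 comes first.

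Proteins bound for secretion or for membranes fold in the ER, where BiP (Hspa5), GRP94 (Hsp90b1) and the lectins calnexin and calreticulin hold them while protein disulfide isomerases pair their cysteines. Chains that do not fold are passed through a membrane complex built on SEL1L and the ubiquitin ligase HRD1 (Syvn1) to the proteasome, a route called ER-associated degradation. When unfolded chains accumulate, the sensors IRE1 (Ern1), PERK (Eif2ak3) and ATF6 raise the genes of both routes, IRE1 by splicing the mRNA of the transcription factor XBP1. Neuroendocrine cells such as these make large amounts of secreted granins, which pass through this machinery.

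A known response element of the pathway, the ER stress response element (ERSE), was looked up in the promoters, and its matches are shown because the genes that hold it are compared below with those that do not. A RefSeq promoter (GRCm38.p6, 250 bases before to 50 after the start site) was found for 31 of the 35 genes. Hyou1, Manf, Derl1 and Atf6 had none in the table, and Ero1l and Ero1lb were matched through their current symbols. The ERSE, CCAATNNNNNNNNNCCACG on either strand, occurred in 10 of the 31 genes (32.3%), against 17 of 8723 tested genes with a promoter (0.195%) and 39 of all 32851 promoters in the table (0.119%), where a gene can have several. The tested genes and promoters compared here include those of the list, so these shares are not independent of it. The 11 matches in the 10 genes lay between 26 and 212 bases before the start site. Each is given on the strand of its gene, with the fixed runs in capitals. CGTGG and ATTGG are the same element on the opposite strand.
Hspa5, chr2:34772020-34772048, plus strand: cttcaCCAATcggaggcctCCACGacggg
Hsp90b1, upstream match, chr10:86705633-86705661, minus strand: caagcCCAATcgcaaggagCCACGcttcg
Hsp90b1, downstream match, chr10:86705528-86705556, minus strand: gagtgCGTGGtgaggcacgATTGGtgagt
Calr, chr8:84847070-84847098, minus strand: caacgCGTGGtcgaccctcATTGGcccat
Canx, chr11:50325795-50325823, minus strand: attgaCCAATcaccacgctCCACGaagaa
Dnajc3, chr14:118937822-118937850, plus strand: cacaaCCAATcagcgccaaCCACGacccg
Creld2, chr15:88819515-88819543, plus strand: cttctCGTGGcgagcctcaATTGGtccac
Pdia6, chr12:17266486-17266514, plus strand: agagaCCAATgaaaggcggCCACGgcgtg
Ero1lb, chr13:12565677-12565705, plus strand: ggcctCGTGGtcccgcctcATTGGccgcc
Syvn1, chr19:6046527-6046555, plus strand: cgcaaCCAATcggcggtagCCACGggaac
Derl3, chr10:75893237-75893265, plus strand: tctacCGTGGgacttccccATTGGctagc

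A compact form of the element, ERSE-II (ATTGG, 1 free base and CCACG, either strand), was found in Herpud1 and Dnajb11. These were 2 of the 31 genes (6.45%), against 0.0917% of tested genes with a promoter and 0.0365% of all promoters. In Herpud1 the compact form was upstream of the start site and in Dnajb11 just after it. The XBP1-binding UPRE, TGACGTGG, was found in 1 gene, Txndc5 (3.23%, against 1.055% of tested genes with a promoter and 0.676% of all promoters). All 3 motifs contain CCACG on one strand. By itself this run of 5 bases was present in 87.1% of the 31 genes, 53.6% of tested genes with a promoter and 32.8% of all promoters. Such matches describe letters and do not show binding.

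The values are FPKM, fragment counts scaled to transcript length and library size, which allow levels to be compared between genes. The lowest depth was that of DMSO replicate 2, with a nominal 3400000 reads against 7870000 to 11700000 in the others. One read in a transcript of 3 kb was worth 0.0981 FPKM there and 0.0286 to 0.0424 FPKM elsewhere. Markers of the labelled neuronal lineage were present, 14 of 15 with a mean over 1 FPKM, although Th stood at only 2.92 to 4.09 FPKM and Dbh at 0.226 to 0.624 FPKM. Those of astrocytes, microglia and endothelium summed to between 0.293 and 2.19 FPKM per list in every library, those of fibroblasts to 1.37 to 2.85 FPKM and those of oligodendrocytes to 6.64 to 9.96 FPKM. Of 10 proliferation markers, 10 had both inhibitor values above both DMSO values, against 19.0% of all genes tested. Their sums were 46.0 and 65.8 FPKM with DMSO against 134 and 266 FPKM with ACSS2i. Pcna alone was at 39.8 and 51.9 FPKM against 67.3 and 115 FPKM, so it made up most of the DMSO sums. The part of these markers in the results below was not tested. Acss2 mRNA, which need not follow the activity of the enzyme, was at 11.7 and 10.0 FPKM with DMSO against 12.8 and 26.6 FPKM with ACSS2i.

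The ER genes were on balance lower with the inhibitor, and the DMSO libraries also differed from each other on the same genes. Together the 35 genes summed to 6489 FPKM in DMSO replicate 1 and 3601 FPKM in DMSO replicate 2. In the inhibitor libraries the sum was 3125 FPKM in replicate 1 and 3018 FPKM in replicate 2. As shares of all FPKM these were 1.10%, 0.610%, 0.560% and 0.447% in the same order. DMSO replicate 1 thus stood far above the other 3 libraries, and DMSO replicate 2 stood nearer to the inhibitor libraries than to its own partner. In bulk RNA, fewer cells of a type and less RNA per cell cannot be told apart.

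**Figure D1:**
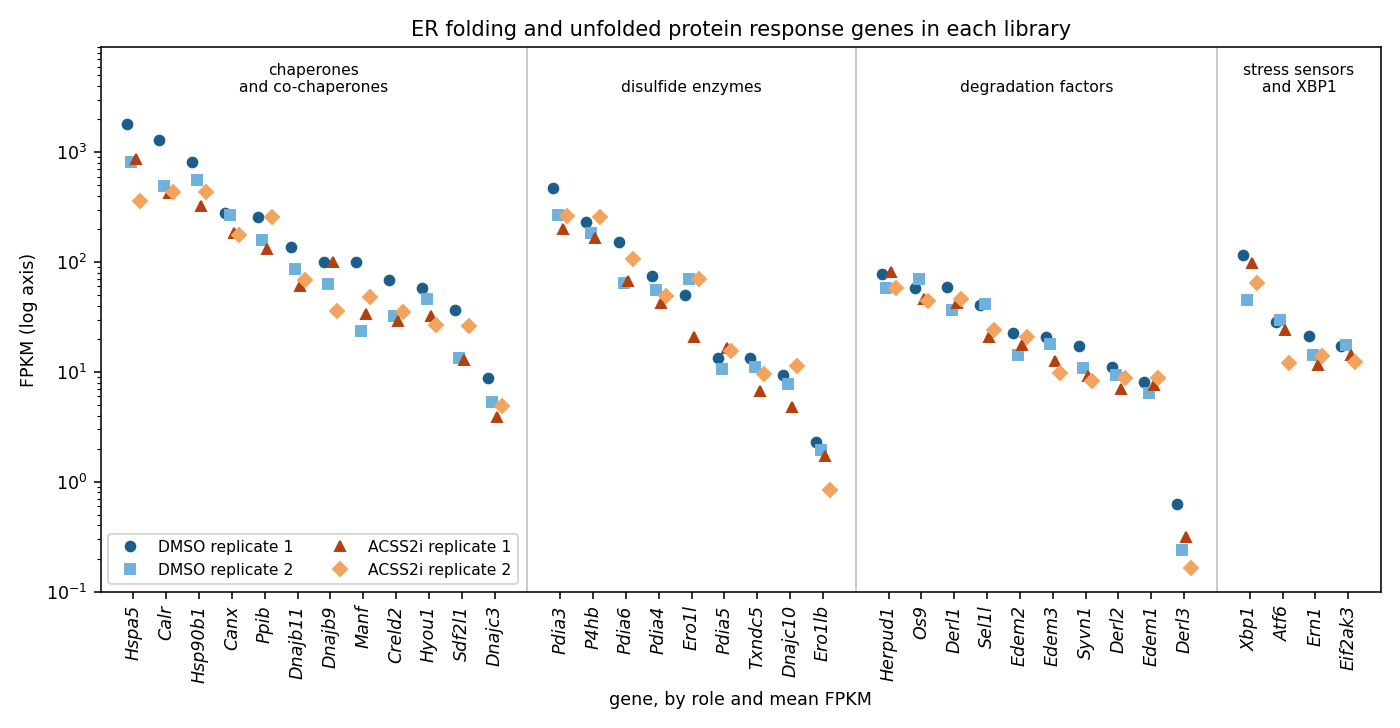
Level of each of the 35 genes (FPKM, log axis) in each of the 4 libraries, by role and then by mean level, with 1 point per library. DMSO replicate 1 (dark circles) is the highest point for 11 of the 12 chaperones and co-chaperones, from Hspa5 at 1813 FPKM to Dnajc3 at 8.77 FPKM.

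Tests were run on log2(FPKM + 1) with limma over the 11486 genes whose mean reached 1 FPKM, and 34 of the 35 genes passed this filter. None of the 34 had a Benjamini-Hochberg adjusted p under 0.05 over all genes by limma, where 3 genes in all (0.0261%) were called. The smallest adjusted p was 0.494, for Sel1l. At an unadjusted p under 0.05, 5 of the 34 (14.7%) passed, against 6.96% of all genes tested. All 5 were lower, as were 3.67% of all genes tested. These were Hsp90b1, Hyou1, Dnajb11, Sel1l and Edem3. Without DMSO replicate 1, which leaves a single DMSO library, their log2 fold changes were -0.59, -0.64, -0.42, -0.88 and -0.64 in that order. Both inhibitor values lay below both DMSO values in 18 of the 34 genes (52.9%), against 18.3% of all genes tested. The opposite order was seen in 1 gene, Pdia5, against 19.0%. Without DMSO replicate 1, both inhibitor values lay below the remaining DMSO value in 18 of 34 against 29.1%. Leaving out a library only loosens this rule, so the count of 18 could not fall. The log2 fold change was negative in 29 of the 34 genes (47.8% of all genes tested), with a median of -0.48 against 0.020 over all genes tested. Without DMSO replicate 1 the median was -0.22 and 23 of 34 were negative. These differences on log2(FPKM + 1) understate the change of genes at low FPKM, and the proliferation markers had a median of 2.03 in the same comparison.

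Chaperones and co-chaperones had a median difference of -0.57 over 12 genes, and 12 of 12 were negative. Both inhibitor values lay below both DMSO values in 6 of the 12 (50%, against 18.3% of all genes tested). Without DMSO replicate 1 the median was -0.22 and 9 of 12 were negative, close to the other roles. Hspa5 encodes BiP, the Hsp70 chaperone of the ER that also holds the sensors inactive. It was at 1813 and 806 FPKM in DMSO replicates 1 and 2, against 874 and 357 FPKM in ACSS2i replicates 1 and 2. The groups overlapped, since ACSS2i replicate 1 lay above DMSO replicate 2, and each group spanned more than a 2-fold range (log2 fold change -1.11). Calr, the soluble lectin calreticulin, was at 1297 and 489.8 FPKM with DMSO against 422 and 432 FPKM with ACSS2i. Here DMSO replicate 1 alone stood apart, and the inhibitor mean was 0.871 times DMSO replicate 2 but 0.329 times DMSO replicate 1.

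Canx, the membrane-bound partner of calreticulin, gave a different picture. Its DMSO values were 279 and 267 FPKM and its inhibitor values 183 and 177 FPKM, so that each pair was tight and the gap between the groups exceeded both spreads (log2 fold change -0.60 ± 0.25, SE; unadjusted p = 0.0519 and adjusted p = 0.727 by limma). Hyou1, the large Hsp70-like exchange factor for BiP, was at 58.6 and 46.1 FPKM with DMSO against 32.0 and 26.7 FPKM with ACSS2i. Its groups were likewise separated by more than either spread (-0.81 ± 0.25, SE; unadjusted p = 0.0183 by limma). Hsp90b1, the Hsp90 of the ER, was at 813 and 564 FPKM with DMSO against 326 and 433 FPKM with ACSS2i. Both inhibitor values were the lower ones, with a spread within DMSO larger than the gap (-0.85 ± 0.33, SE; unadjusted p = 0.0426 by limma).

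The J-domain co-chaperones of BiP did not move as a block. Dnajb11, which binds unfolded chains for BiP, was at 138 and 86.3 FPKM with DMSO against 60.3 and 68.5 FPKM with ACSS2i (log2 fold change -0.76 ± 0.30, SE; unadjusted p = 0.0478 by limma). Dnajc3, of the same group, was much less abundant, at 8.77 and 5.35 FPKM against 3.89 and 4.94 FPKM. In both genes the inhibitor values were below both DMSO values. Dnajb9, an induced co-chaperone that restrains IRE1, was at 100.2 and 63.0 FPKM with DMSO against 100.5 and 35.6 FPKM with ACSS2i, with the highest and the lowest value in the same group.

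The small soluble factors of the list, which ER stress strongly induces, overlapped between the groups. Manf, a secreted cofactor of BiP with neurotrophic activity, was at 100.7 and 23.7 FPKM with DMSO against 33.8 and 48.5 FPKM with ACSS2i. Sdf2l1, a partner of Dnajb11, was at 36.9 and 13.3 FPKM against 12.8 and 26.1 FPKM. Creld2 was at 68.7 and 32.0 FPKM against 29.0 and 35.1 FPKM. In all 3 the DMSO values bracketed at least 1 inhibitor value, and for Manf and Sdf2l1 the inhibitor mean was 1.74 and 1.46 times the value in DMSO replicate 2. Ppib, the prolyl isomerase cyclophilin B, was at 258 and 159 FPKM with DMSO against 133 and 258 FPKM with ACSS2i, an almost complete overlap.

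**Figure D2:**
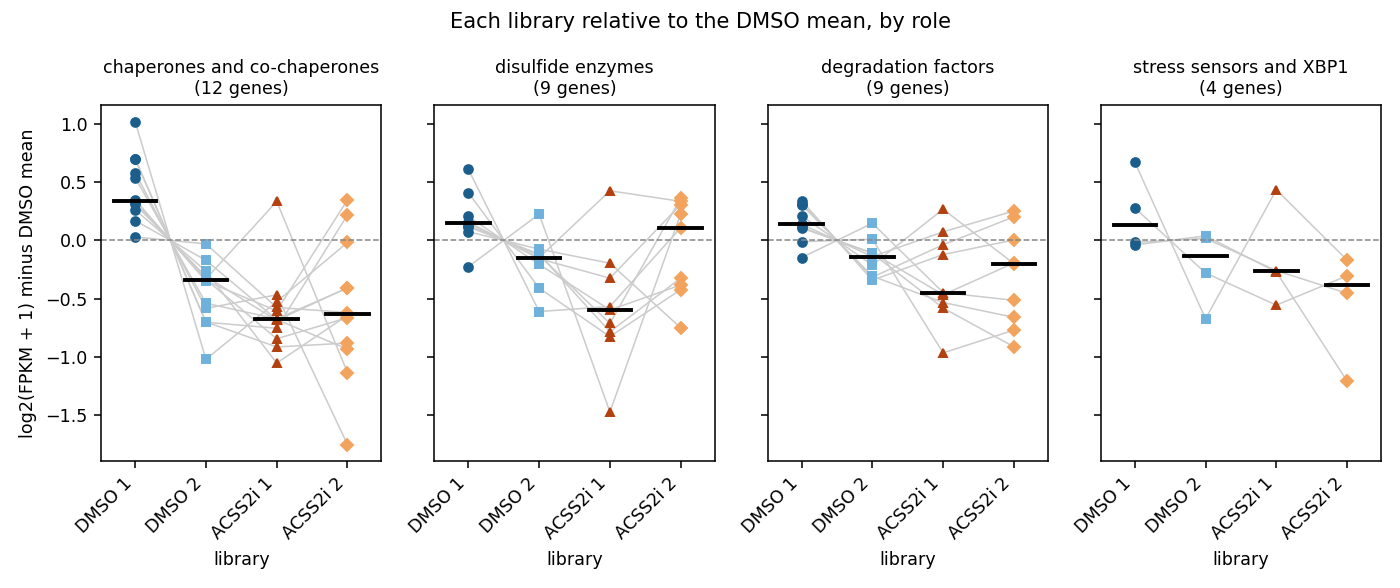
Difference of each library from the mean of the DMSO libraries, in log2(FPKM + 1), for the tested genes of each role, with 1 point per gene, grey lines joining a gene and black bars at the median. Chaperone medians are 0.34 and -0.34 in DMSO replicates 1 and 2 and -0.68 and -0.63 in ACSS2i replicates 1 and 2, while the disulfide enzymes are at -0.60 in ACSS2i replicate 1 and 0.11 in ACSS2i replicate 2.

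Disulfide enzymes were lower in ACSS2i replicate 1 and near the DMSO mean in ACSS2i replicate 2. The median over 9 genes was -0.47, and 8 of 9 were negative, but without ACSS2i replicate 1 the median was 0.11. Pdia3, the isomerase that works with calnexin and calreticulin, was at 473 and 267 FPKM with DMSO against 199.9 and 265 FPKM with ACSS2i. Pdia4 was at 74.3 and 55.6 FPKM against 42.1 and 49.1 FPKM, and Txndc5 at 13.3 and 11.2 FPKM against 6.65 and 9.53 FPKM (log2 fold change -0.55 ± 0.26, SE; unadjusted p = 0.0799 by limma). These 3 isomerases had both inhibitor values under both DMSO values, for Pdia3 by a margin far smaller than its DMSO spread. With Ero1lb that order held in 4 of the 9 genes (44.4%, against 18.3% of all genes tested).

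P4hb, the classical protein disulfide isomerase, was at 231 and 185 FPKM with DMSO against 165 and 256 FPKM with ACSS2i. Pdia6 was at 153 and 64.9 FPKM against 66.9 and 108 FPKM, and Dnajc10, a reductase that prepares chains for degradation, at 9.38 and 7.70 FPKM against 4.79 and 11.2 FPKM. All 3 overlapped between the groups and were lowest or nearly lowest in ACSS2i replicate 1. Pdia5 was the exception of the whole list, at 13.4 and 10.7 FPKM with DMSO against 16.4 and 15.4 FPKM with ACSS2i (log2 fold change 0.38, unadjusted p = 0.152 by limma). Of the oxidases that recharge the isomerases, Ero1l was at 50.6 and 69.6 FPKM with DMSO against 20.7 and 69.7 FPKM with ACSS2i, a low value in a single library. Its paralog Ero1lb was scarce, at 2.28 and 1.96 FPKM against 1.72 and 0.849 FPKM, where counting error weighs most.

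Of the 9 degradation factors tested, Sel1l, Syvn1, Edem3, Os9 and Derl2 had both inhibitor values below both DMSO values (5 of 9, 55.6%, against 18.3% of all genes tested). Herpud1, Edem1, Edem2 and Derl1 overlapped. Sel1l, the scaffold of the HRD1 ligase (chromosome 12, 91806043 to 91849157, minus strand, GENCODE M21 on GRCm38), had DMSO values of 41.0 and 41.7 FPKM and inhibitor values of 20.7 and 23.8 FPKM. The inhibitor mean was 0.542 and 0.534 times the DMSO libraries, so this gene, which had the smallest p of the list, did not depend on which DMSO library was used (log2 fold change -0.87 ± 0.22, SE; unadjusted p = 0.00825 by limma). Edem3, which trims mannose from misfolded glycoproteins, was at 21.0 and 17.9 FPKM with DMSO against 12.6 and 9.80 FPKM with ACSS2i (-0.75 ± 0.24, SE; unadjusted p = 0.0220 by limma). Os9, the lectin that hands such glycoproteins to SEL1L, was at 57.5 and 70.8 FPKM with DMSO against 46.5 and 44.3 FPKM with ACSS2i (-0.48 ± 0.24, SE; unadjusted p = 0.0902 by limma). For Sel1l and Edem3 the gap between the groups was larger than the spread within either. For Os9 this held by a small margin on log2(FPKM + 1) and not in FPKM, where the DMSO values lay farther apart than the groups.

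Syvn1, the ligase itself, was at 17.2 and 10.9 FPKM with DMSO against 9.16 and 8.30 FPKM with ACSS2i. Both inhibitor values were lower, with a wide DMSO pair (log2 fold change -0.60 ± 0.28, SE; unadjusted p = 0.0785 by limma). Derl2, a channel-forming derlin, was at 11.0 and 9.34 FPKM against 7.06 and 8.74 FPKM. Its paralog Derl1 overlapped, at 59.0 and 36.4 FPKM against 42.5 and 46.5 FPKM, and Derl3 was below the filter at 0.632, 0.241, 0.312 and 0.164 FPKM in the same order of libraries. At the nominal depth the Derl3 value in DMSO replicate 2 stood for under 1 read per kb of transcript, so no difference was detectable.

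Among the remaining degradation factors the inhibitor values fell within or around the DMSO range. Herpud1, a stress-induced subunit of the ligase complex, was at 77.4 and 57.5 FPKM with DMSO against 80.6 and 58.0 FPKM with ACSS2i. Edem1 was at 8.02 and 6.45 FPKM against 7.63 and 8.77 FPKM, and Edem2 at 22.6 and 14.2 FPKM against 17.4 and 20.8 FPKM. Edem3 and its paralogs Edem1 and Edem2 thus differed in sign on the log2 scale, at -0.75, 0.16 and 0.083, a contrast that was not tested. The degradation factors had a median of -0.33 over 9 tested genes, with 6 of 9 negative.

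The 3 stress sensors had both inhibitor values below both DMSO values and Xbp1, whose mRNA IRE1 splices, did not. That order thus held in 3 of these 4 genes (75%), against 18.3% of all genes tested. Atf6, which is cleaved in the Golgi to release a transcription factor, was at 28.3 and 29.9 FPKM with DMSO against 24.0 and 12.0 FPKM with ACSS2i (log2 fold change -0.74 ± 0.35, SE; unadjusted p = 0.0771 and adjusted p = 0.772 by limma). The size of that difference came largely from ACSS2i replicate 2, and the value without it was -0.27. Eif2ak3, the kinase PERK, was at 17.1 and 17.5 FPKM against 14.3 and 12.3 FPKM, a small difference with tight pairs (-0.36 ± 0.22, SE; unadjusted p = 0.158 by limma). Ern1, the nuclease IRE1, was at 21.4 and 14.2 FPKM against 11.6 and 14.0 FPKM (-0.43 ± 0.28, SE; unadjusted p = 0.173 by limma). The Ern1 groups were nearly tied, at 14.0 against 14.2 FPKM for their nearest values, a gap far smaller than the DMSO spread. Xbp1 was at 116 and 44.8 FPKM with DMSO against 97.9 and 64.0 FPKM with ACSS2i (0.13 ± 0.48, SE; unadjusted p = 0.792 by limma), with both inhibitor values inside the DMSO range. Gene-level FPKM do not separate its spliced from its unspliced mRNA.

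The difference between the DMSO libraries varied in size over the list, without a clear break. Of the 34 tested genes 29 (85.3%) were higher in DMSO replicate 1 than in DMSO replicate 2, against 50.0% of all genes tested. DMSO replicate 1 was the highest of the 4 libraries in 23 of the 34 (67.6%), against 22.3%. The median difference between the DMSO libraries was 0.48 on log2(FPKM + 1), against 0.00018 over all genes tested, and as large as the median difference between the groups. More than a 2-fold difference was seen in 7 genes (20.6%, against 3.03%). These were Manf (4.26-fold), Sdf2l1 (2.78), Calr (2.65), Xbp1 (2.58), Pdia6 (2.36), Hspa5 (2.25) and Creld2 (2.15). Apart from Calr, all of them overlapped between DMSO and ACSS2i. DMSO replicate 2 had 0.292 of the depth of DMSO replicate 1, and the part of depth was not tested. At the nominal depth of DMSO replicate 2, which could be off by a whole factor, Manf had 80.5 reads per kb of transcript and Hspa5 had 2740.2.

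**Figure D3:**
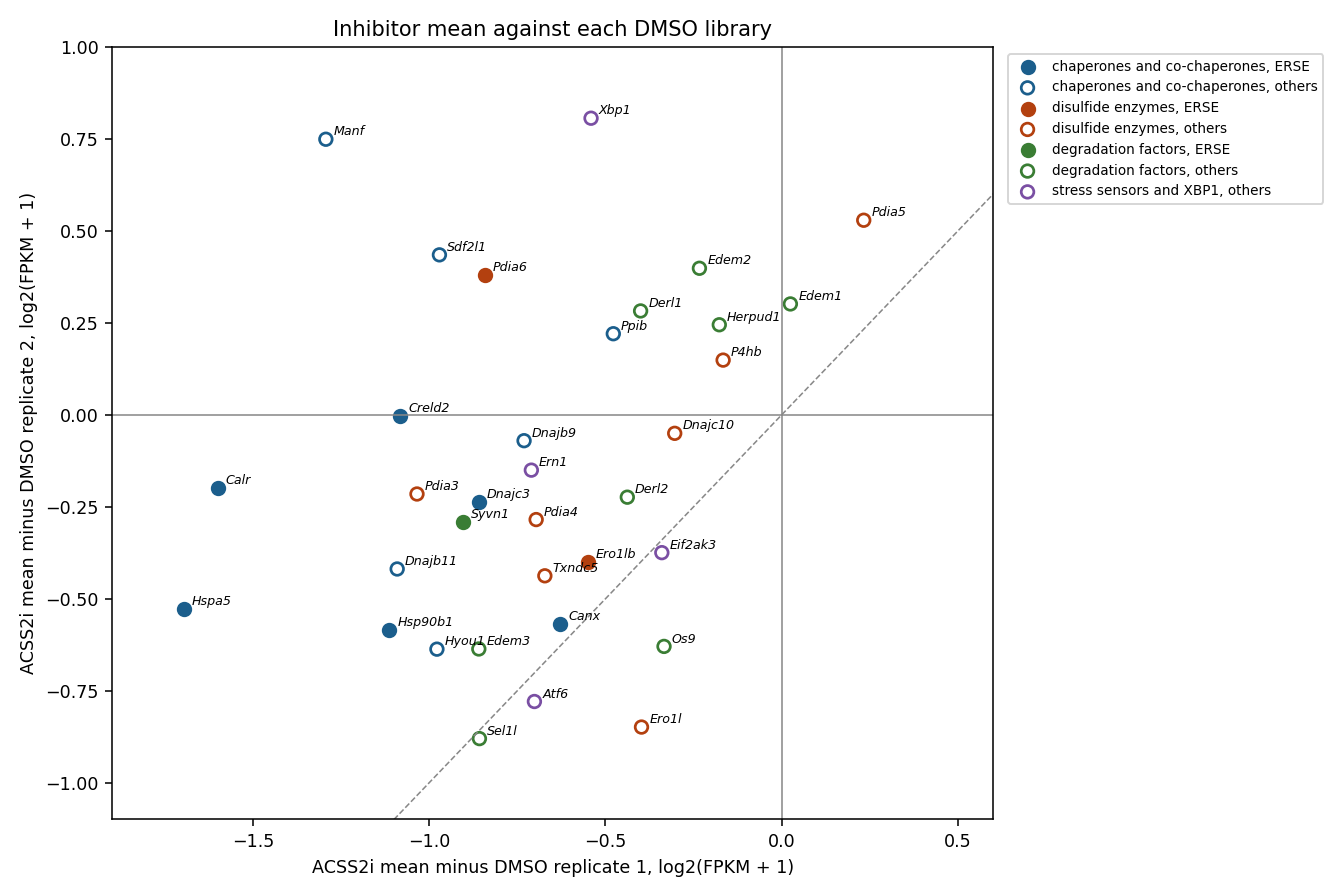
Inhibitor mean minus DMSO replicate 1 (x axis) against inhibitor mean minus DMSO replicate 2 (y axis), in log2(FPKM + 1), for 34 genes coloured by role, filled where the promoter held an ERSE. Sel1l, Atf6 and Canx lie near the dashed line of equal difference, while Manf and Xbp1 are lower than DMSO replicate 1 and higher than DMSO replicate 2.

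Against DMSO replicate 1, the inhibitor mean was lower in 32 of the 34 genes, with a median of -0.70. Against DMSO replicate 2 it was lower in 23 of the 34, with a median of -0.22, while 47.6% of all genes tested were lower in that contrast. With the choice of DMSO library the median moved from -1.03 to -0.22 for the chaperones, from -0.55 to -0.22 for the disulfide enzymes, from -0.40 to -0.22 for the degradation factors and from -0.62 to -0.26 for the sensors and XBP1. In 6 of the 34 genes (17.6%, against 5.67% of all genes tested) the gap between the groups on log2(FPKM + 1) was larger than the spread within either: Hyou1, Canx, Sel1l, Edem3, Os9 and Eif2ak3. This criterion was chosen after the values had been seen.

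The 9 tested genes with an ERSE differed between the DMSO libraries by 1.04-fold (Canx) to 2.65-fold (Calr). All 9 were higher in DMSO replicate 1, with a median difference of 0.62, and all 9 were highest there of the 4 libraries. Of the 21 genes with a promoter and no ERSE match, 17 were higher in DMSO replicate 1, with a median of 0.32, and 11 were highest there. Over all genes tested these shares were 50.0% and 22.3%. Between the groups the medians were -0.60 with the element and -0.36 without it. They were -0.91 and -0.48 against DMSO replicate 1, and -0.29 and -0.15 against DMSO replicate 2. The difference between these sets was not tested, and the element goes with role. Hspa5, Hsp90b1, Calr, Canx, Dnajc3 and Creld2 hold it and are chaperones or co-chaperones. In that role 12 of 12 genes were higher in DMSO replicate 1 and 11 were highest there. Its members with a promoter and no ERSE match differed by 0.66 (Dnajb9), 0.67 (Dnajb11), 1.41 (Sdf2l1) and 0.70 (Ppib) between the DMSO libraries.

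The inhibitor libraries differed from each other along another line. In the pathway below PERK, ATF4 turns on stress and amino acid genes. Here 11 of 13 tested genes (84.6%, against 48.1% of all genes tested) were higher in ACSS2i replicate 1 than in ACSS2i replicate 2, with a median difference of 0.50. Ddit3 (CHOP), a factor of prolonged stress picked out here after its values were seen, was at 1110.4 and 1162 FPKM with DMSO against 1602 and 324 FPKM with ACSS2i. Ppp1r15a (GADD34), which reverses the phosphorylation that PERK sets, was at 207 and 290.3 FPKM against 389 and 70.7 FPKM, and was also chosen after its values were seen. The tested ER genes mostly did not follow this order: 13 of 34 (38.2%) were higher in ACSS2i replicate 1 and 21 were lower. Among those that did, Hspa5, Dnajb9, Ero1lb and Atf6 had the largest ratios, 2.45, 2.82, 2.02 and 1.99 times higher in ACSS2i replicate 1. Ero1l, Dnajc10, Sdf2l1 and Ppib had the opposite order, at 0.297, 0.428, 0.490 and 0.514 times.

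Between the groups the PERK and ATF4 genes had a median of -0.21 over 13 tested genes, with 8 negative and 0 called. The inhibitor libraries lay on opposite sides of the DMSO mean, with medians of 0.34 in replicate 1 and -0.59 in replicate 2. Without overlap 1 gene was lower (7.69%, against 18.3% of all genes tested) and 1 higher (7.69%, against 19.0%). Asns, asparagine synthetase, was at 303 and 389 FPKM with DMSO against 461 and 585 FPKM with ACSS2i (log2 fold change 0.60). Sesn2, a stress-induced regulator of mTORC1, was at 25.9 and 24.9 FPKM against 21.3 and 16.5 FPKM. Cebpb, a transcription factor of this branch, overlapped (-0.66).

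Other regulators of the response had a median of -0.33 over 10 genes, with 8 negative and 0 called. Without overlap 4 of the 10 were lower, against 18.3% of all genes tested, and 0 higher, against 19.0%. The median was -0.45 against DMSO replicate 1 and -0.34 against DMSO replicate 2. Mbtps1 and Mbtps2 encode the Golgi proteases that cleave ATF6. Mbtps1 was at 39.7 and 34.7 FPKM with DMSO against 23.0 and 26.3 FPKM with ACSS2i, and Mbtps2 at 35.8 and 38.1 FPKM against 18.4 and 27.4 FPKM. Both proteases, like Atf6 itself, had lower values in each inhibitor library (log2 fold changes of -0.58 and -0.69, unadjusted p = 0.0465 and 0.0426 by limma). Tmbim6, a membrane protein that dampens IRE1, had -0.55.

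**Figure D4:**
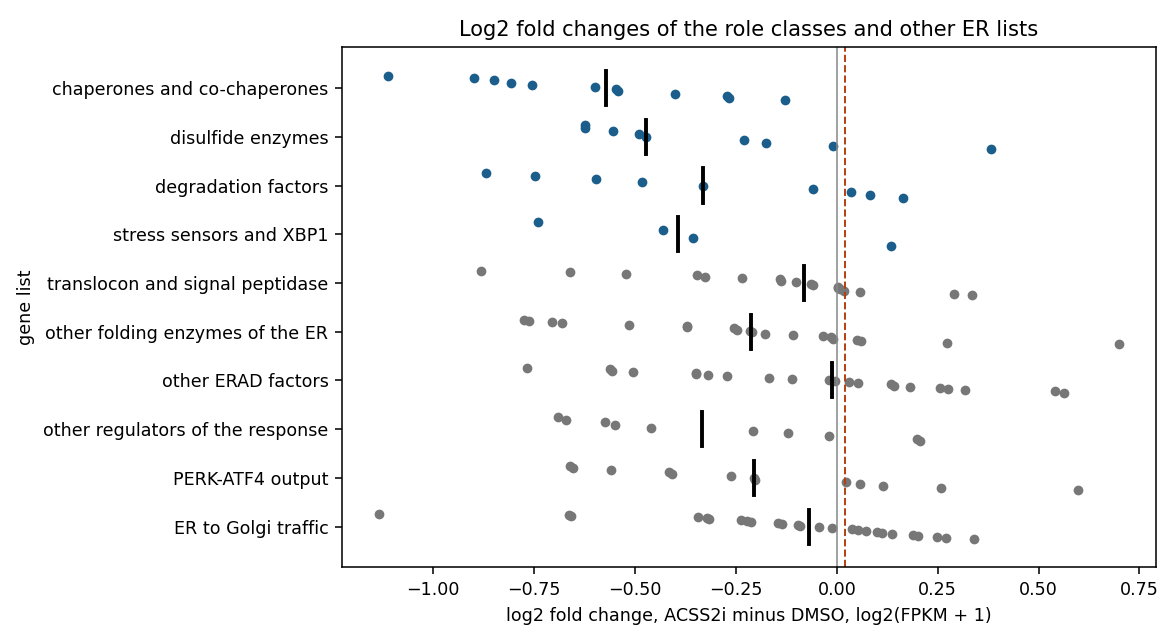
Log2 fold change (ACSS2i minus DMSO, log2(FPKM + 1)) of each tested gene in the 4 roles (blue) and in 6 other lists of the ER pathway (grey), with black bars at the list medians and a dashed line at the median of all genes tested, 0.020. The role medians lie between -0.57 and -0.33, and those of the other lists between -0.33 and -0.012, an order that does not hold against DMSO replicate 2 alone, where the roles lie between -0.26 and -0.22 and the other regulators at -0.34.

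The folding enzymes outside the list had a median of -0.21 over 20 tested genes of 24, with 16 negative and 0 called. Against DMSO replicate 2 alone the median was -0.030 with 11 of 20 negative, and against DMSO replicate 1 it was -0.38. Without overlap 7 were lower (35%, against 18.3% of all genes tested) and 1 higher (5%, against 19.0%). Tmx4, a membrane-bound thioredoxin-like protein, was at 70.2 and 70.4 FPKM with DMSO against 38.1 and 44.1 FPKM with ACSS2i, a tight pair on each side (log2 fold change -0.76, unadjusted p = 0.0160 by limma). Sil1, a nucleotide exchange factor for BiP like Hyou1, was at 32.0 and 33.7 FPKM against 22.0 and 18.3 FPKM (-0.68). Tmx3 had -0.77.

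For entry into the ER, the translocon and signal peptidase had a median of -0.082 over 18 genes, and its sign turned with the DMSO library, from -0.30 against replicate 1 to 0.15 against replicate 2. Of the 18 genes 16 were higher in DMSO replicate 1 than in DMSO replicate 2. Without overlap 5 were lower (27.8%, against 18.3% of all genes tested) and 1 higher (5.56%, against 19.0%). Sec11c, a catalytic subunit of signal peptidase, was at 207 and 160.4 FPKM with DMSO against 93.1 and 104 FPKM with ACSS2i (log2 fold change -0.88). Ssr1 and Sec62, which assist the Sec61 channel, had -0.66 and -0.52. Traffic from the ER to the Golgi had a median of -0.068 over 26 genes, which was -0.29 against DMSO replicate 1 and 0.14 against DMSO replicate 2. Of the 26 genes 24 were higher in DMSO replicate 1 than in DMSO replicate 2. Without overlap 5 were lower (19.2%, against 18.3% of all genes tested) and 3 higher (11.5%, against 19.0%). Kdelr3, a receptor that returns escaped chaperones, was at 5.39 and 6.08 FPKM against 1.26 and 3.14 FPKM (-1.13), and the cargo lectins Lman1 and Lman2 both had -0.66. In both lists 0 genes were called.

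The other degradation factors had a median of -0.012 over 22 genes, with 0 called, which was -0.14 against DMSO replicate 1 and 0.063 against DMSO replicate 2. Without overlap 7 were lower (31.8%, against 18.3% of all genes tested) and 3 higher (13.6%, against 19.0%). Erlec1, a lectin that acts beside Os9, was at 49.7 and 35.8 FPKM with DMSO against 28.7 and 20.7 FPKM with ACSS2i (log2 fold change -0.77). Vcp, the cytosolic ATPase that pulls substrates out of the membrane, went the other way, at 62.3 and 80.9 FPKM against 103 and 108 FPKM (0.56). The neuronal markers had a median of -0.25 over 14 tested genes, with 8 negative. Without overlap 1 was lower (7.14%, against 18.3% of all genes tested) and 0 higher (against 19.0%). That gene was the granin Chgb, a cargo of this pathway, at 6801 and 10010.0 FPKM with DMSO against 4453 and 2509 FPKM with ACSS2i. The granin Chga overlapped, at 192 and 208 FPKM against 78.1 and 228 FPKM. The order of Chgb between the DMSO libraries was opposite to that of the chaperones.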

How the data were processed

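Polyadenylated RNA of 4 libraries was measured. Per the submitters' processing notes, the tools were Cuffdiff, Cufflinks 2.2.1, STAR 2.3.0 and bcl2fastq 02.14.01.07, and the build was mm10. The deposited values were taken as FPKM made by the authors, since these notes name Cufflinks, although the header gives no unit. The gene annotation is not given in the sources used here. No value was under 0.01. One gene with a failure mark was left out. Relative depths (1, 0.292, 0.675 and 0.857) were read from the most common ratios of values up to 0.5 FPKM, and nominal reads from 101 single-transcript genes of GENCODE M21; they share these low values and could be off by a whole factor. Whole reads were not recovered, so no count test was run.

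log2(FPKM + 1) of genes whose mean reached 1 FPKM was compared with limma 3.58.1 (R 4.3.3; mean-variance trend, two-sided, Benjamini-Hochberg over all genes), tested on simulated data first. The smallest exact permutation p for 2 against 2 libraries is 0.333. SE are limma's moderated ones. Full statistics were given for the 10 genes with the smallest p and for the sensors, and up to 3 genes of each other list were named by p, of which 1 is not reported here. The genes and lists were chosen with earlier results of these data known. Motifs were searched as exact letters in RefSeq promoters. In total 12 alternative settings were run.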

Additional observations from a re-analysis of the deposited data

How the results depend on the processing

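None of the ER genes was called under any of the 12 alternatives by limma; at an unadjusted p under 0.05 between 0 (without DMSO replicate 1) and 8 (without ACSS2i replicate 1) of them passed, and their smallest adjusted p ran from 0.164 to 1. Over all genes 3 were called, 6 with a pseudocount of 0.1, 0 with a pseudocount of 5, 0 without a filter, 8 with the replicate block, and 13 to 26 when a library was left out; the error there comes only from the group that is still complete. The replicate block changed no call among the ER genes. Same-numbered libraries gave no sign of pairing: their deviations from the group means had a correlation of -0.017 across 11486 genes. The labels do not say whether such libraries shared a culture, and this correlation cannot settle it. Leaving out a library, the median of the ER genes ran from -0.70 to -0.22, that of chaperones from -1.03 to -0.22, of sensors and XBP1 from -0.62 to -0.26 and of disulfide enzymes from -0.60 to 0.11, positive without ACSS2i replicate 1. The count of genes lower without overlap ran from 17 to 27 over its alternatives, where leaving out a library can only keep or raise it. With a pseudocount of 5 the disulfide median was -0.22. The sign of 12 genes turned when a library was left out: Derl1 (-0.40 to 0.28), Dnajb9 (-1.14 to 0.34), Dnajc10 (-0.71 to 0.36), Edem2 (-0.23 to 0.40), Ero1l (-1.48 to 0.23), Herpud1 (-0.20 to 0.27), Manf (-1.29 to 0.75), P4hb (-0.32 to 0.31), Pdia6 (-0.84 to 0.38), Ppib (-0.61 to 0.35), Sdf2l1 (-0.97 to 0.44) and Xbp1 (-0.54 to 0.81). Herpud1 was also at -0.014 under quantile normalization. The cause was not tested.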
